A study of Mus musculus with 6 samples.

Results

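Ier2, Ier3, Ier5, Btg1, Btg2, Zfp36, Zfp36l1, Zfp36l2 and Zc3h12a encode feedback regulators, many of them short-lived and switched on soon after a stimulus. They were taken by gene symbol, as 3 IER genes, 2 BTG genes and 4 RNA-decay factors, and are 9 of the 26778 genes in the authors' deposited table. RNA was sequenced from macrophages that had been grown out of mouse bone marrow in conditioned medium. The marrow came from C57BL/6 mice of genotype Flt-1+/+ (VR1+/+), called wild type below, or Flt-1+/- (VR1+/-), called heterozygote; Flt1 encodes VEGF receptor 1. All 6 libraries, 3 of each genotype, came from cells of culture day 7 that were starved of serum and kept at 2% oxygen for 6 h. No unchallenged library was analysed here, so the comparison is between genotypes under hypoxia and starvation, and the induction of these genes was not measured. The sources used here do not give the age of the mice, the kind of Flt1 allele, or whether each library stands for its own animal.

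Many genes of these families belong to the immediate early response, whose promoters are engaged by pre-made factors such as SRF, CREB and NF-kB. The IER proteins act as regulators of transcription, survival and phosphatase activity. The BTG proteins restrain proliferation and recruit the CCR4-NOT complex, which removes poly(A) tails. ZFP36 (tristetraprolin) and its relatives ZFP36L1 and ZFP36L2 bind AU-rich elements in 3' untranslated regions and also bring in CCR4-NOT. Zc3h12a encodes Regnase-1, an endonuclease that cuts stem-loop transcripts. In macrophages the decay factors limit cytokine mRNAs.

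The authors' table gives a mean normalized count per genotype, in which each library's read counts are scaled by its size factor. Whole counts of each library were recovered from these means, with 1 solution for each of the 9 genes. The recovered libraries carry letters A, B and C within a genotype, which are not tied to replicate numbers. Depth was an estimated 25263390 to 41661897 counted reads per library, and intervals and SDs below are over 3 libraries a genotype. Flt1 itself measured 3.70, 10.3 and 6.04 normalized counts in wild type A, B and C and at 17.1, 12.9 and 8.19 in heterozygote A, B and C. It was not lower in the heterozygote, so at this depth it does not check the genotype labels, and every direction is between libraries as labelled. The mitochondrial gene mt-Co2 is listed at 0 in wild type C and heterozygote B and C and at 4070 to 4751 in the other libraries, which divides the libraries into sets that cross genotype. Markers of other cells moved with genotype. Of 12 tested neutrophil and precursor markers, 8 rose and 1 fell in the authors' test, with a median log2 ratio of 3.50. Of all tested genes, 2.51% rose and 3.52% fell. S100a9 had means of 91.4 and 1507 normalized counts in wild type and heterozygote, and Ngp, a granule gene, 11.5 and 708. The 17 listed markers summed to 10872 to 11620 in wild type libraries and 12492 to 13415 in heterozygote libraries, with none at 0 in both genotypes. The highest of them was Csf3r, the marker that fell, with means of 7890 and 5436. Elane, Prtn3 and Ctsg were at 0 in wild type and at means of only 0.66, 2.36 and 0.82 in the heterozygote. They had no adjusted p in the authors' deposited table. Of 13 macrophage markers, 4 fell and 0 rose, and the 6 with recovered counts summed to 28953 to 30594 and 18225 to 20067. Of the tested markers of other cells, 2 of 6 dendritic, 2 of 4 B and plasma and 1 of 2 T and NK cell markers fell, 1 of 8 stromal and 1 of 3 erythroid and megakaryocyte markers rose, and 0 of 1 mast cell and basophil markers changed. Their part in the results was not tested, and in bulk RNA fewer cells of a type and less RNA per cell cannot be told apart.

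Ier3 and Ier5, the members with the clearest genotype difference, are shown with their promoters from RefSeq (build GRCm38.p6, 250 bases before to 50 after the annotated start). Capitals mark, on either strand, CCAAT (the motif of NF-Y), GGGCGG (the motif of SP1) and GGANTTTCC (a motif of NF-kB). Promoters were matched for 7 of the 9 members; Ier2 and Zfp36l2 are named only.
Ier3 promoter, chr17:35821463-35821762, plus strand: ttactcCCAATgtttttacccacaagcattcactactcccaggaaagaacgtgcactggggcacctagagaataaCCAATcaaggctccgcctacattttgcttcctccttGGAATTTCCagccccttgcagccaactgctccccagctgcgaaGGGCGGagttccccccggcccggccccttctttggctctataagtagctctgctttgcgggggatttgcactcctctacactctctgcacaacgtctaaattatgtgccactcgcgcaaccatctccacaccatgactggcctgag
Ier5 promoter, chr1:155099587-155099886, minus strand: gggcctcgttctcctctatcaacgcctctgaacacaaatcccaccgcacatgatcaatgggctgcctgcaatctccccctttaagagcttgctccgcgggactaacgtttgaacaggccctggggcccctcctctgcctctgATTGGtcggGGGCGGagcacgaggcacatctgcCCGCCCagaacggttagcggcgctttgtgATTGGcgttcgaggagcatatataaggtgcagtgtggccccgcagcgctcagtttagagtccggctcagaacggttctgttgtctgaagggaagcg

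Both promoters hold CCAAT and GGGCGG, motifs present in 37.4% and 35.7% of the 32851 mouse promoters searched. The search left out a chromosome that holds no member. The Ier3 promoter alone of the pair holds GGANTTTCC, as GGAATTTCC at -139 to -131 from the start. Of the promoters searched, 1.25% hold this motif. Btg2 was the other member with a match to it. In all, 11 motifs were searched on both strands. TGACGTCA, the cyclic AMP response element, occurs in 1.79% of promoters and was found in Btg2. GCGNGGGCG, the EGR motif, occurs in 5.55% and was found in Btg2 and Zfp36, and the CArG box bound by SRF occurs in 1.63% and was found in Zfp36. TATAAA (13.6% of promoters) was found in Btg1 and Zfp36l1, TGANTCA, the AP-1 motif (7.81%), in Zfp36l1, and ACGTG, the core bound by hypoxia-inducible factors (19.6%), in Ier3. The longer NF-kB consensus (4.51%) was found in Ier3, where it overlaps the marked GGGCGG, and GAANNTTC, the heat shock motif (7.86%), in no member's window.

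The 3' untranslated regions separate the members into those with and without the AU-rich heptamer TATTTAT, the DNA form of the site that ZFP36 proteins bind. The sites below are from GENCODE M21 transcripts (build GRCm38), as 30 bases with the heptamer in capitals.
Ier3 site, chr17:35822481-35822510, plus strand: tgtctaattaaTATTTATgTATTTATgtat
Zfp36 site, chr7:28376965-28376994, minus strand: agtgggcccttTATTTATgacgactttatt
Zfp36l1 site, chr12:80108421-80108450, minus strand: ttatcaaaacgTATTTATtgccaaactatg
Zfp36l2 site, chr17:84184913-84184942, minus strand: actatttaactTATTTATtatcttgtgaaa
Btg2 site, chr1:134077248-134077277, minus strand: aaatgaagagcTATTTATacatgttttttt

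Ier3 holds 4 copies of the heptamer in 613 bases of 3' untranslated region, counting overlapping copies. Among the 2102 regions of other genes within 20% of that length, 0.523% hold as many. Zfp36, Zfp36l1 and Zfp36l2 hold 3 copies each, as many as are reached by 1.21%, 4.14% and 4.17% of regions of like length. Btg2 holds 1 copy, and Ier2, Ier5, Btg1 and Zc3h12a hold 0. Over the 20167 mouse genes searched, the heptamer is present in 27.7% of these regions. Genes of the chromosome left out of the promoter search and of the mitochondrial genome were not among them. Heptamer content did not separate the genes that differed between genotypes, since Ier3 has 4 copies and Ier5 has 0.

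All 9 members had a lower mean in the heterozygote, where 51.1% of the 15789 tested genes did. The median log2 ratio of group means (with 1 added to each mean) was -0.38 over the members and -0.01 over all tested genes. The authors' test called 2 members lower, Ier3 and Ier5, and 0 higher, at an adjusted p of 0.05; it called 3.52% of all tested genes lower and 2.51% higher. limma on the recovered counts called the same 2 members, against 1.41% of its 15139 genes lower and 0.826% higher. Every heterozygote library lay below every wild type library for 4 members, Ier3, Ier5, Btg1 and Zfp36l1, against 12.3% of genes in the limma fit. The remaining 5 members overlapped between genotypes.

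**Figure D1:**
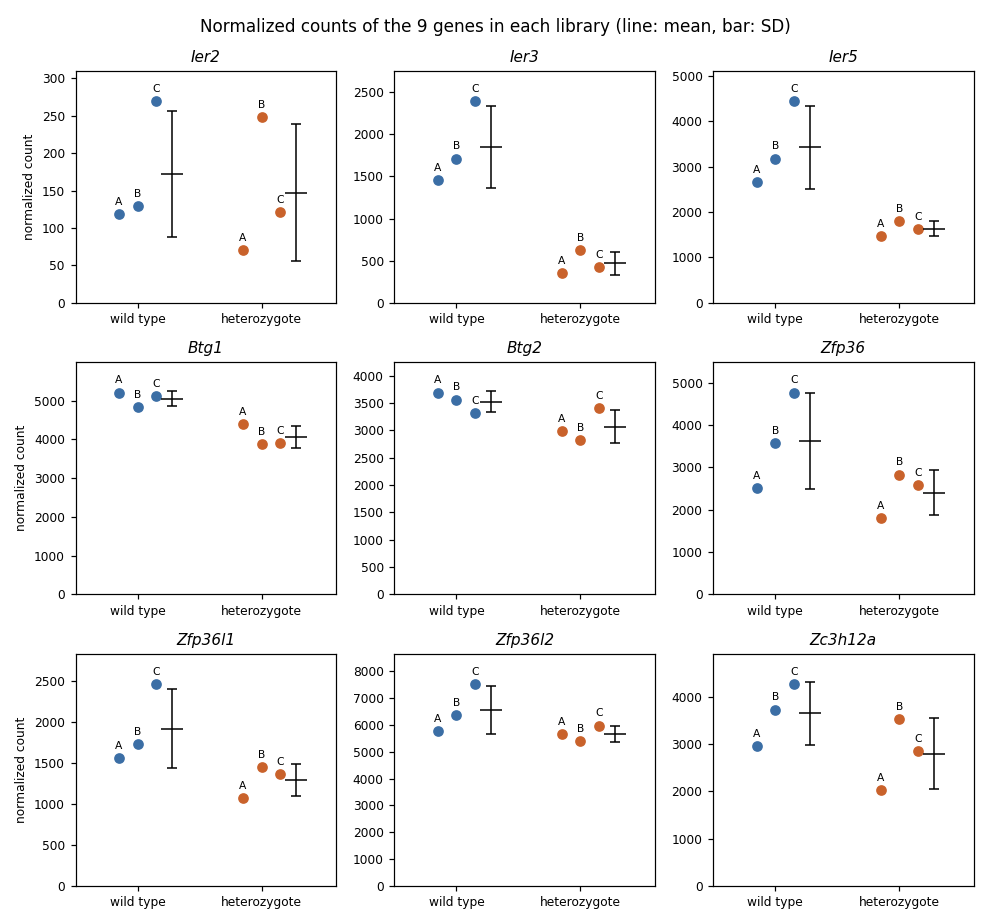
Normalized counts of each gene (vertical axis, from 0) in the 3 wild type and 3 heterozygote libraries, lettered points, with the mean and SD beside them. Ier3, Ier5, Btg1 and Zfp36l1 have no overlap between genotypes, and wild type C and heterozygote B are often the highest points of their group.

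Among the IER genes, Ier3 and Ier5 were lower in the heterozygote and Ier2 was not called. Ier3 (ENSMUSG00000003541, chromosome 17, 35821684 to 35822923 in build mm10, plus strand), which encodes an apoptosis and signalling regulator also called IEX-1, measured 1455, 1713 and 2396 normalized counts in wild type A, B and C and at 354, 623 and 429 in heterozygote A, B and C. The lowest wild type library stood 831 normalized counts above the highest heterozygote library. The means were 1855 ± 487 and 469 ± 139 (SD, n = 3 each), a 3.96-fold lower level in the heterozygote.

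For Ier3 the log2 fold change in the authors' deposited table was -1.58 (standard error 0.21), and the adjusted p there, 5.41e-12, ranked 49 among 15789 genes. By limma its difference was -1.99 on the log2 scale with a 95% interval of -2.59 to -1.39 and an adjusted p of 0.0178. The limma call was lost without wild type B (adjusted p 0.0927), wild type C (0.0650) or heterozygote C (0.0808), while the difference stayed between -2.22 and -1.79 over the 6 omissions of 1 library.

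Ier5 (ENSMUSG00000056708, chromosome 1, 155096361 to 155099636, minus strand), whose human protein binds the phosphatase PP2A and the heat shock factor HSF1, measured 2657, 3177 and 4445 normalized counts in wild type A, B and C. In heterozygote A, B and C it was at 1467, 1809 and 1631. The groups did not overlap, and the wild type libraries spread wider than the heterozygote ones, with SDs of 920 and 171 around means of 3426 and 1636 (n = 3 each). The heterozygote mean was 47.7% of the wild type mean.

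For Ier5 the authors' deposited table has a log2 fold change of -0.92 (standard error 0.18, adjusted p 2.01e-05), ranked 196. limma gave -1.04 with a 95% interval of -1.49 to -0.59 and an adjusted p of 0.0449. That call was lost in every omission of 1 library, with an adjusted p of 0.0551 without wild type A, 0.151 without wild type B, 0.102 without wild type C, 0.119 without heterozygote A, 0.0643 without heterozygote B and 0.155 without heterozygote C. With all libraries kept, it was also lost when genes with a mean of 1 to 10 entered the fit (adjusted p 0.0524). The difference itself ranged from -1.20 to -0.83 over the omissions. Ier3 and Ier5 were the members whose heterozygote mean was under 50% of wild type, where 2.71% of all tested genes were.

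Ier2 (ENSMUSG00000053560, chromosome 8, 84661331 to 84662852, minus strand), a nuclear protein induced by growth factors, was the least abundant member and the most variable within a genotype. It measured 118, 129 and 270 normalized counts in wild type A, B and C and at 70.9, 248 and 121 in heterozygote A, B and C. Wild type C and heterozygote B stood well above the other libraries of their own genotype, and the groups overlapped. Behind these values were 87 to 268 reads per library. For Ier2 the authors' deposited table has a log2 fold change of -0.12 (standard error 0.26, adjusted p 0.914). The limma interval of -1.49 to 0.87 spans large differences in either direction, and the sign turned without wild type C (0.064) or without heterozygote A (0.12).

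The BTG genes differed little and were steady between libraries. Btg1 (ENSMUSG00000036478, chromosome 10, 96617006 to 96622809, plus strand), an antiproliferative partner of the CCR4-NOT deadenylases, measured 5211, 4824 and 5123 normalized counts in wild type A, B and C and at 4401, 3881 and 3909 in heterozygote A, B and C. The groups did not overlap, with 423 normalized counts between the nearest libraries, and the means were 5053 ± 203 and 4064 ± 292 (SD, n = 3 each). The difference was not called. Its adjusted p was 0.0651 in the authors' deposited table and 0.126 by limma, with an interval of -0.51 to -0.12 for a log2 difference of -0.32.

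Btg2 (ENSMUSG00000020423, chromosome 1, 134075170 to 134079120, minus strand), a target of p53 as well as of growth factor signals, was at 3695, 3566 and 3320 in wild type A, B and C. In heterozygote A, B and C it was at 2990, 2826 and 3403, so that heterozygote C lay above wild type C. In the authors' deposited table Btg2 has a log2 fold change of -0.19 (adjusted p 0.473), and the limma interval was -0.43 to 0.03. Coefficients of variation within a genotype were 4.01% to 9.68% for the BTG genes, against 10.5% to 62.2% for the IER genes.

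The 4 RNA-decay factors had lower means in the heterozygote but none was called by either test. Zfp36 (ENSMUSG00000044786, chromosome 7, 28376784 to 28380253, minus strand), the prototype AU-rich element binding protein, measured 2516, 3573 and 4764 normalized counts in wild type A, B and C. In heterozygote A, B and C it was at 1794, 2828 and 2587. Only heterozygote A lay below all wild type libraries. The means were 3618 ± 1125 and 2403 ± 541 (SD, n = 3 each), with adjusted p = 0.188 in the authors' deposited table and a limma interval of -1.18 to 0.05.

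Zfp36l1 (ENSMUSG00000021127, chromosome 12, 80107754 to 80113013, minus strand), a paralog of Zfp36 with the same zinc finger domain, was at 1554, 1722 and 2459 in wild type A, B and C and at 1070, 1446 and 1357 in heterozygote A, B and C. The groups did not overlap, but only 108 normalized counts separated the nearest libraries. For Zfp36l1 the authors' deposited table has a log2 fold change of -0.48 (standard error 0.18, adjusted p 0.0953). By limma the difference was -0.55, with an interval of -1.01 to -0.09 and an adjusted p of 0.225. With the mt-Co2 library set as a term, limma gave -0.71 with an adjusted p of 0.0251, so this call depends on that term.

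Zfp36l2 (ENSMUSG00000045817, chromosome 17, 84183931 to 84187947, minus strand), the third paralog, was at 5784, 6366 and 7531 in wild type A, B and C and at 5660, 5395 and 5980 in heterozygote A, B and C. Heterozygote C lay above wild type A. In the authors' deposited table Zfp36l2 has a log2 fold change of -0.19 (adjusted p 0.524), and the limma interval was -0.46 to 0.06.

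Zc3h12a (ENSMUSG00000042677, chromosome 4, 125118423 to 125127840, minus strand), the endonuclease gene, was at 2954, 3737 and 4278 in wild type A, B and C and at 2023, 3531 and 2853 in heterozygote A, B and C. Heterozygote B lay within the wild type range. Its log2 fold change in the authors' deposited table was -0.32 (adjusted p 0.440), and the limma interval was -0.93 to 0.12. These intervals still hold sizeable differences, so the 7 uncalled members were not shown to be equal between genotypes.

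**Figure D2:**
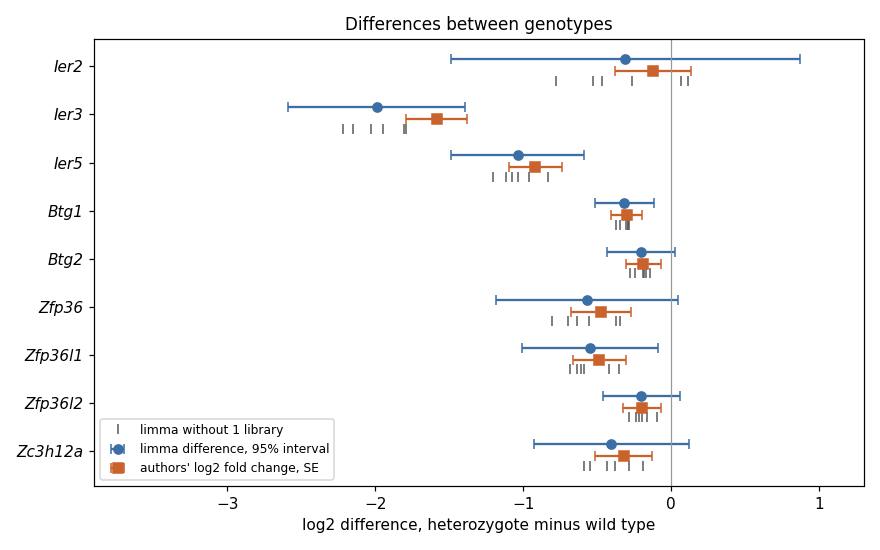
Log2 difference of each gene, heterozygote minus wild type: limma estimates with 95% intervals (circles), the authors' log2 fold changes with standard errors (squares) and limma estimates without 1 library (ticks). Of the 9 genes Ier3 (-1.99 by limma) and Ier5 (-1.04) lie farthest from 0, and the ticks of Ier2 lie on both sides of 0.

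Genes annotated across some members could share their reads, because the sources used here do not say whether strand was used in the counting. Gm44710, antisense to Zfp36, had means of 10.5 and 14.7 normalized counts in wild type and heterozygote. Gm26669, on the strand opposite to Zfp36l1, had 10.3 and 9.49. Both are far below the gene they overlap, but how many reads were shared was not measured. AC132455.1, antisense to Zfp36l2, is not among the genes of the authors' deposited table, so no value was available for it.

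Levels per kilobase of exon allow the members to be ordered within a genotype. In wild type libraries, Zfp36l2 was highest at 1858 ± 252 normalized counts per kilobase (SD, n = 3), followed by Ier3 at 1640 ± 430, Btg2 at 1286 ± 69.5, Zc3h12a at 1269 ± 231, Ier5 at 1046 ± 281, Zfp36 at 1043 ± 324, Btg1 at 958 ± 38.4, Zfp36l1 at 639 ± 161 and Ier2 at 113 ± 55.5. Neighbours from Zfp36l2 to Btg1 in this order had overlapping ranges of mean ± SD. In the heterozygote the order was Zfp36l2 (1609 ± 83.0), Btg2 (1120 ± 108), Zc3h12a (972 ± 262), Btg1 (770 ± 55.4), Zfp36 (692 ± 156), Ier5 (499 ± 52.2), Zfp36l1 (432 ± 65.6), Ier3 (414 ± 123) and Ier2 (96.6 ± 60.1). There the mean ± SD ranges of Zfp36l2 and Ier2 were clear of their neighbours, and those of neighbours from Btg2 to Ier3 overlapped. Ier3 was next to Zfp36l2 in wild type and next to Ier2 in the heterozygote. Ier2 stood at the 44.7 percentile of tested genes per kilobase over both genotypes, and the other members between the 79.4 and the 93.8 percentile.

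Within each genotype the same libraries tended to be high. Wild type C was the highest wild type library for 7 of 9 members, where it was highest for 34.7% of genes in the limma fit. Heterozygote B was the highest heterozygote library for 6 of 9 members (36.2% of all genes), and both held for 6 members (18.9% of all genes). Those 6 were Ier2, Ier3, Ier5, Zfp36, Zfp36l1 and Zc3h12a. Zfp36l2 was highest in wild type C and in heterozygote C, and the BTG genes followed another order. Relative to the mean of wild type A and B, wild type C was 2.18 times as high for Ier2, 1.51 times for Ier3, 1.52 times for Ier5, 1.28 times for Zc3h12a and 1.24 times for Zfp36l2. For Btg1 and Btg2 the same ratio was 1.02 and 0.914.

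**Figure D3:**
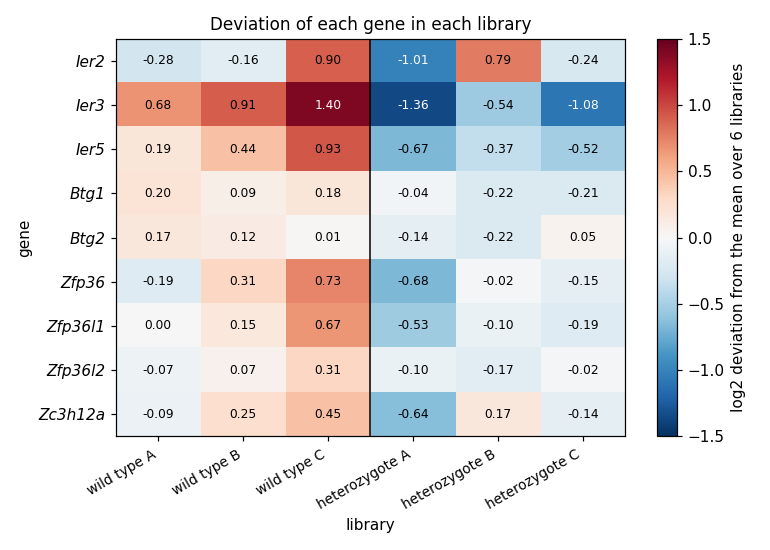
Log2 deviation of each gene (rows) in each library (columns) from its mean over 6 libraries, red above and blue below. Wild type C reaches 1.40 for Ier3 and 0.90 for Ier2, heterozygote A reaches -1.36 and -1.01 for the same genes, and Btg1 and Btg2 lie between -0.22 and 0.20.

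Because wild type C lacks mt-Co2 reads while wild type A and B have them, the genotypes were also compared within each library set, with no test since each set has 1 genotype with a single library. All 9 members were lower in the heterozygote within both sets. The share of all genes lower within both was not counted, and the sets use the same libraries as the main comparison. Among libraries with mt-Co2 reads Ier3 differed by -2.15, Ier5 by -0.99, Ier2 by -0.79, Zfp36 by -0.74 and Zc3h12a by -0.72 on the log2 scale. Among those without, the same genes differed by -2.21, -1.37, -0.63, -0.82 and -0.43. Btg1 differed by -0.19 and -0.40, Btg2 by -0.28 and -0.10, Zfp36l1 by -0.61 and -0.81, and Zfp36l2 by -0.10 and -0.41. In the limma fit with the set as a term, Ier3, Ier5 and Zfp36l1 were called lower, against 2.12% of all genes.

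Genes whose profile over the 6 libraries was most like the mean profile of the members, among 10794 genes with a mean of at least 100 normalized counts, were Klf2, Zdhhc18, Jun, Fbxl8 and Gadd45g. Their Pearson r was 0.998, 0.998, 0.996, 0.995 and 0.995, and Spearman's rho was 1 for each; these are descriptions over 6 libraries that share their genotype groups and depth, picked as the highest of many. Klf2, a transcription factor, was at 955 ± 342 and 436 ± 133 normalized counts in wild type and heterozygote (SD, n = 3 each), and Jun, an AP-1 subunit, at 5255 ± 2369 and 1904 ± 645. Gadd45g, a growth arrest gene, was at 1082 ± 670 and 224 ± 118. The authors' test called Klf2, Jun and Gadd45g lower (adjusted p 0.00475, 4.9e-04 and 0.0296), and limma did not (0.129, 0.117 and 0.113). After each genotype was centred on its own mean, the nearest genes were Prrc1, Trio, Sapcd1, Gm48529 and Mon1b, with r from 0.997 to 0.999 over the same libraries. Prrc1, at 2461 ± 244 and 2350 ± 218, Trio, at 3642 ± 387 and 3544 ± 312, and Mon1b, at 1137 ± 122 and 1071 ± 101, had no genotype difference beyond their SD. Sapcd1 had a lower mean in the heterozygote, at 344 ± 115 and 204 ± 50.6 in wild type and heterozygote. Gm48529 had a higher one, at 121 ± 25.7 and 172 ± 34.5. Neither test called Sapcd1 (adjusted p 0.124 in the authors' deposited table and 0.255 by limma) or Gm48529 (0.347 and 0.318).

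Other genes of the same pathways were counted from lists drawn up by function. Of 7 tested paralogs of the members, 0 fell and 1 rose in the authors' test, against 3.52% and 2.51% of all tested genes. Zc3h12d, a relative of Regnase-1, was higher in the heterozygote at 1293 ± 46.7 against 924 ± 78.9 normalized counts (SD, n = 3 each), with adjusted p = 0.00415 in the authors' deposited table and 0.0605 by limma. Of 16 deadenylase genes, which include the CCR4-NOT subunits that BTG and ZFP36 proteins recruit, the authors' test called 0, with a median log2 ratio of 0.10. It also called 0 of 20 decapping, exonuclease and exosome genes, with a median of 0.00; limma called 0 of 15 and 0 of 19 in these lists.

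Of 12 other AU-rich and stem-loop binding proteins, 1 fell and 1 rose in the authors' test, against 3.52% and 2.51% of all tested genes. Hnrnpd, which encodes the AU-rich element binding protein AUF1, was higher in the heterozygote at 3130 ± 177 against 2208 ± 70.4 normalized counts, and limma called it as well (adjusted p 0.0316). With 1 library left out, limma called 1 gene of this list without heterozygote B and 0 in every other omission. N4bp1, an RNase related to Regnase-1, was lower at 2632 ± 70.1 against 3409 ± 111 in the authors' test only (limma adjusted p 0.0567). Of 14 kinases, phosphatases and adaptors that act on the ZFP36 proteins or Regnase-1, 1 fell and 1 rose. Dusp1, the phosphatase that shuts off p38 and through it the phosphorylation of ZFP36, had means of 2272 ± 593 and 726 ± 42.5 in wild type and heterozygote, with adjusted p = 1.03e-12 in the authors' deposited table and 0.0159 by limma. limma called 0 genes of this list without wild type B, wild type C or heterozygote C. Ywhaz, a 14-3-3 adaptor, rose from a mean of 11146 to 15238 in the authors' deposited table. Of 16 factors and kinases that induce immediate early genes, such as Srf, Creb1 and Rela, both tests called 0.

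Many transcripts known as substrates of ZFP36 or Regnase-1, mostly cytokine and signalling genes, were lower in the heterozygote. Of 23 tested, 13 fell and 1 rose in the authors' test, with a median log2 ratio of -0.91. Of all tested genes, 3.52% fell and 2.51% rose. Plk2, a polo-like kinase, was at 5157 ± 562 and 2016 ± 192 normalized counts in wild type and heterozygote (SD, n = 3 each), and Irf4, a transcription factor, at 540 ± 32.5 and 185 ± 18.9. Ccl4, a chemokine, was at 3601 ± 688 and 1193 ± 162. Nfkbiz, a target of Regnase-1, was the gene that rose, from a mean of 24432 to 29745 in the authors' deposited table (adjusted p 0.0477). limma called 10 of 22 lower with all libraries. It called 7 without wild type A, 2 without wild type B and 4 without wild type C. Without heterozygote A, B or C it called 5, 11 and 2. Over all genes limma called 214 lower with all libraries and 64, 22, 29, 93, 225 and 43 in the same omissions.

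Of 16 p53 pathway genes, the list to which Btg2 relates, 2 fell and 0 rose in the authors' test. Of all tested genes, that test called 3.52% lower and 2.51% higher. Cdkn1a, the p21 cell cycle inhibitor, was at 4284 ± 370 and 3024 ± 280 normalized counts and Phlda3 at 328 ± 46.1 and 187 ± 35.9 in wild type and heterozygote; limma called 0 of 15, with adjusted p of 0.0629 and 0.0864 for this pair, and 1 with the library set term or without heterozygote B. Of 12 heat shock genes and cofactors, the list to which Ier5 relates, 7 fell and 0 rose, with a median log2 ratio of -0.53. Hspb1, a small heat shock protein, went from 599 ± 234 to 69.3 ± 22.4, Hsph1 from 2462 ± 536 to 923 ± 120 and Dnajb1, a co-chaperone, from 2344 ± 534 to 1047 ± 19.5 (SD, n = 3 each). Hsf1 itself was not called, at means of 615 and 480 with adjusted p = 0.279 as the authors' deposited table has it. Hspa1a and Hspa1b, 2 of the 7, are near-identical, so their separate counts are uncertain. limma called 5 of 11 lower with all libraries. It called 4 without wild type A, 0 without wild type B and 2 without heterozygote B. Without wild type C, heterozygote A or heterozygote C it called 1. Over all genes limma called 214 lower with all libraries and 22 to 225 in the omissions.

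**Figure D4:**
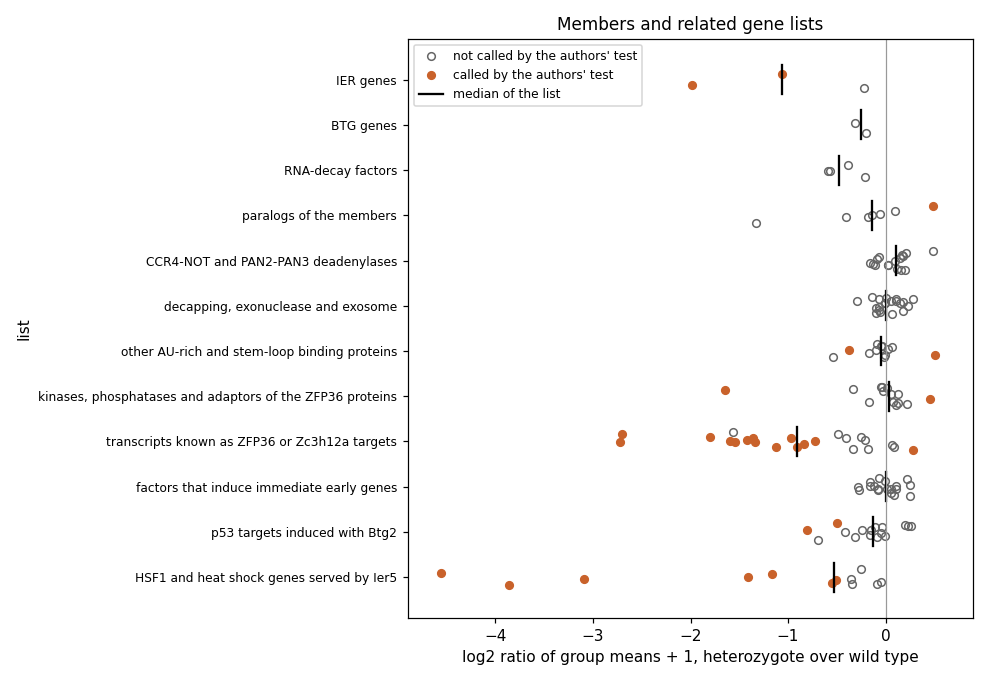
Log2 ratio of group means (1 added) for the tested genes of each list, one point per gene, filled where the authors' test called it, with the list median as a bar. The substrate and heat shock lists have medians of -0.91 and -0.53, and the deadenylase list has a median of 0.10.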

How the data were processed

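RNA was rRNA-depleted and made into stranded libraries, per the labels' protocols. FastQC, TopHat 1.0.0 and Cufflinks with build mm10 are named in the submitters' processing notes; the role of each was not given in the sources used here, nor was the read counter. The deposited signal columns hold the authors' mean normalized count per genotype, and its columns are named, per the file headers, as in a DESeq2 results table. The deposited log2 fold changes and standard errors are heterozygote over wild type and are drawn towards 0; the deposited score is their quotient, and the deposited p-values and adjusted p are two-sided. A deposited call is an adjusted p under 0.05 at a mean that reaches 1 normalized count.

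Each group mean is a sum of 3 whole counts times library steps of 1/(3 × size factor). The steps were read from the lowest means and the counts solved from the 15 printed digits, with a unique solution for 26349 of 26778 genes (98.4%); genes with several solutions were left out. Size factors recomputed as median ratios lay within 0.146% of those solved. On simulated means 26554 of 26779 wild type and 26356 of 26779 heterozygote rows came back right and 0 wrong. The fit of recovered counts used limma 3.58.1 (R 4.3.3) with a mean trend, on log2(normalized count + 1) of the 15139 genes whose mean reached 10, with Benjamini-Hochberg adjustment. Counts were also simulated for heterozygote against wild type over those genes, with the same dispersion of 0.0137 for every gene. On these the fit called 91% of genes changed 2-fold, 100% of genes changed 4-fold and 4 unchanged genes. The shares may not hold for genes that varied more. Coefficients of variation in wild type and heterozygote libraries were 49.1% and 62.2% for Ier2 and 26.2% and 29.7% for Ier3.

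The design foresaw either layout of the table; the group values meant that the authors' test was counted. Alternatives were other thresholds, filters, pseudocounts and scalings, a library set term and the omission of each library. Named genes were all 9 members, up to 3 called genes of each pathway list by smallest deposited adjusted p, and 5 genes by likeness to the members. S100a9, Ngp, Csf3r, Elane, Prtn3, Ctsg, Nfkbiz, Hsf1, Srf, Creb1, Rela, Hspa1a and Hspa1b were named after their values were seen. The members and lists were chosen with earlier results of these data known. Of 26778 identifiers, 26677 matched the reference annotation. Python 3.11.15 was used for the other steps. Since the labels do not tie libraries to animals, p-values cover only the spread between the 3 libraries of a genotype, which may be technical.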

Additional observations from a re-analysis of the deposited data

How the results depend on the processing

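The authors' test called 2 members lower, and the same count was found at an adjusted p of 0.01, without a filter on low means, with a minimum mean of 50 and by limma; at an adjusted p of 0.1 it called 4, adding Btg1 and Zfp36l1. limma called 2 members with pseudocounts of 0.5 and 8, a minimum mean of 50, library totals and upper quartile scaling, 3 with the library set term, 1 with a minimum mean of 1, where Ier5 was lost (adjusted p 0.0524), and between 0 and 1 when 1 library was left out. Over all genes limma called 339 with all libraries, against 556 lower and 397 higher by the authors' test, 484 with the set term and 41 to 361 with 1 library left out. Among refits of single members, 104 kept direction and call, 10 lost a call, 1 gained one, and 2 turned sign, both of Ier2, at 0.064 without wild type C and 0.12 without heterozygote A. The cause of these changes was not tested. The 4 members without overlap between genotypes were also 4 under library totals and upper quartile scaling, alternatives chosen after seeing the data. No paired analysis was possible because the recovered libraries carry no replicate numbers. Power at 3 libraries a genotype was simulated for 2-fold and 4-fold changes, with the same dispersion for every gene. It was not simulated for the smaller differences of the uncalled members or for the wider spread of some members.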
